A study of Populus tremula x Populus alba with 12 samples.

Results

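In the leaves of glycosyltransferase knockout poplar, 142 transcripts averaged under 1 CPM in control leaves and reached at least 2 CPM in every knockout library. They were chosen from the counts themselves out of 16866 transcript rows. CPM, the unit used throughout, is a count divided by the library total and scaled to 1000000. A member had a mean under 1 CPM over the 6 wild-type and empty-vector libraries, at least 2 CPM in each of the 3 knockout libraries, and every knockout value above every control value. Of all rows, 2313 had a control mean under 1 CPM, and 142 of these (6.14%) reached 2 CPM in all 3 knockout libraries. The condition of no overlap removed 0 further rows. The 142 rows belong to 141 loci. Since knockout and control values chose the members, their contrast is described here and carries no test, and knockout against intermediate shares the knockout values that chose the members. The word "on" refers only to these CPM limits.

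The libraries came from fully expanded leaves of clonal hybrid poplar (Populus tremula x alba, clone INRA 717 hybrid), taken at mid-stem from plants kept for 3 months in a greenhouse. There were 4 genotype groups of 3 libraries, whose labels are Wild-type, Empty-Vector, Intermediate Phenotype and Knockout. Knockout plants had a glycosyltransferase gene disrupted by CRISPR, in which a guided nuclease cuts a chosen gene and faulty repair leaves small sequence changes. The labels name neither the edited gene nor the guide, give no edit or line for any group, define the intermediate group by its phenotype only, and do not say what the empty vector carried. It is also not stated whether the libraries of a group came from separate lines, so p-values cover the spread among these libraries only, which may be technical. All 12 libraries share the clone, the age, the leaf type and the growth conditions.

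Glycosyltransferases of the UGT class join a sugar from UDP-sugar to small molecules such as phenolics and hormones, which alters how these are stored and moved. In poplar leaves such enzymes take part in making salicinoids, phenolic glycosides with a salicyl alcohol core that deter herbivores. RNA of whole leaves gives the average over all cell types, so more cells of a type and more RNA per cell cannot be told apart.

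Library totals, in units of 1000000 counts, ran from 5.38 to 17.3, so that 1 count was worth between 0.0578 and 0.186 CPM. A floor of 3 counts corresponded to between 0.173 and 0.558 CPM. The level of 2 CPM therefore stood on 11 or more counts in each knockout library, whereas many control values of members stood on 0 to 10 counts. Since the labels do not name the edited gene, its level could not be used to check them. The transcripts carry Populus trichocarpa type IDs, in which the number before the G is the chromosome, the number after it rises along that chromosome, and the final digit is the transcript of the locus. The files pair no ID with a name or a function. The members are therefore given by ID, no marker of leaf or of any other cell type could be read, and no sequence is shown.

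Together the 142 members summed to 1136, 1523 and 1129 CPM in the 3 knockout libraries, or between 0.113% and 0.152% of a library. The wild-type sums were 72.3, 68.5 and 75.0 CPM. Those of empty-vector were 74.8, 66.5 and 73.2 CPM. In intermediate, whose libraries took no part in the choice, they were 124.5, 100.01 and 121 CPM. All 3 intermediate sums lay above all 6 control sums and far under the knockout sums. The rule held the control values of members low and their knockout values high. This order was therefore partly built in and is a description. The order was the same with TMM-scaled library sizes, where intermediate read 134, 99.8 and 132 CPM and the controls between 64.7 and 75.7 CPM. The other 2171 rows with a control mean under 1 CPM did not show this order. Their sum was 1077 to 1209 CPM in intermediate, 987 to 1124 CPM in wild-type and 1222 to 1436 CPM in empty-vector. In knockout their sum was 1793 to 1899 CPM, above that of every control library. These rows had been picked for low control values, which favours this direction, so the difference is a description.

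**Figure D1:**
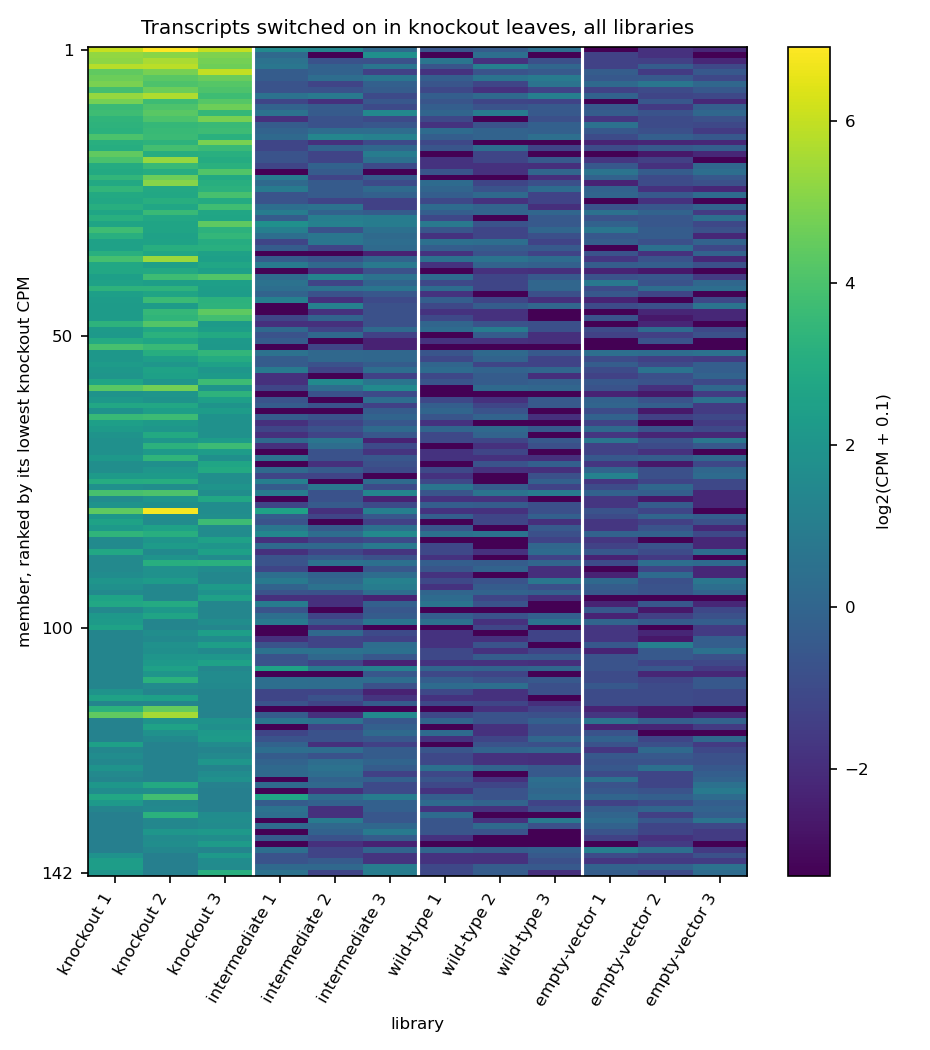
Heat map of the 142 members (rows, ranked by their lowest knockout value) in the 12 libraries (columns), coloured by log2(CPM + 0.1); white lines part the groups. By construction every knockout cell stands for at least 2 CPM and is brighter than all control cells of its row. Rows with 1 much brighter knockout cell, or with a bright cell in intermediate, include members named in the text.

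The level reached in knockout differed widely between members. The mean knockout level had a median of 5.28 CPM and ran from 2.35 to 83.9 CPM. In 62 of 142 members the lowest knockout library was under 3 CPM, in 42 it was at least 5 CPM, in 13 at least 10 CPM and in 1 at least 50 CPM. The 10 members with the highest knockout mean held 30.8% of the summed knockout level. In controls the member means had a median of 0.486 CPM. Only 78 members had a count in all 12 libraries, and 56 had 0 counts in at least 1 control library. edgeR's quasi-likelihood test called 140 of the 142 members higher in knockout than in the controls, where it called 17.1% of all 14279 tested rows higher. That contrast chose the members, so nothing is read from this count.

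The highest of all was Potri.003G190600.1, which read 66.1, 121 and 65.0 CPM in knockout, 2.90, 2.51 and 1.07 CPM in intermediate, 0.550, 0.686 and 1.25 CPM in wild-type. Its empty-vector values were 0, 0.173 and 0.121 CPM. Its knockout libraries held 385 to 649 counts of it, against 0 to 8 counts in a control. Knockout stood far above all other libraries, 2 of the 3 intermediate libraries stood above every control, and all 3 empty-vector libraries stood below all 3 wild-type libraries.

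Potri.019G124600.1 read 36.2, 49.4 and 27.4 CPM in knockout. No other library exceeded 1.47 CPM, wild-type 1 being the highest of these. Its intermediate values of 1.36, 0.502 and 0.486 CPM lay among the controls. Potri.014G146000.1 read 21.1, 27.7 and 63.2 CPM in knockout, 0.681, 0.836 and 0.291 CPM in intermediate and 0.183 to 0.716 CPM in controls. Here knockout library 3 was the highest, and intermediate again overlapped the controls.

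Potri.011G110000.1 was among the more even ones, with 24.5, 19.7 and 23.8 CPM in knockout, 0.681, 1.17 and 1.46 CPM in intermediate and 0.363 to 1.72 CPM in controls. Potri.002G192600.1 read 14.2, 24.3 and 16.6 CPM in knockout, 0.511, 0.502 and 0.680 CPM in intermediate and 0.172 to 0.604 CPM in controls. Intermediate did not stand apart from controls in either transcript.

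**Figure D2:**
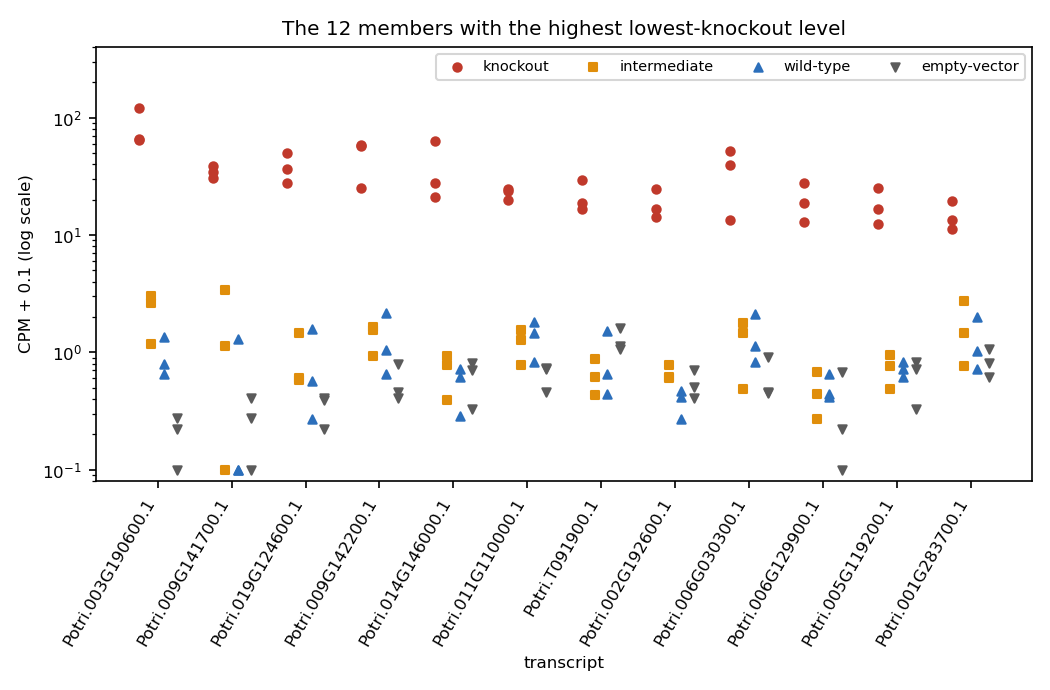
CPM + 0.1 on a log axis for the 12 members with the highest lowest-knockout value; each point is 1 library, coloured and shaped by group. Every knockout point lies at 11.2 CPM or above, while no control point exceeds 2.06 CPM and no intermediate point exceeds 3.30 CPM.

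Potri.019G014800.1 was the only member with 0 counts in all 6 controls. It read 15.1, 12.3 and 4.35 CPM in knockout, from 88, 66 and 40 counts, and 0, 0.334 and 0.0971 CPM in intermediate, from 0, 2 and 1 counts. With a floor of 3 counts over the 6 controls, its knockout mean was at least 187-fold higher. Potri.T029200.1, on a scaffold not placed on a chromosome, was the only member with 0 counts in all 3 intermediate libraries. Its knockout values were 9.10, 22.5 and 2.39 CPM, and its highest control value was 0.313 CPM. Its knockout mean was at least 83.6-fold above intermediate, with the same floor over the 3 intermediate libraries.

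The limits of the rule cut through a continuous range. Just inside the control limit lay Potri.002G091600.1, with a control mean of 0.987 CPM, and Potri.013G037900.1, with 0.982 CPM. Just outside lay Potri.001G381000.1 and Potri.019G124700.1, with 1.001 and 1.004 CPM, the latter next in number to the member Potri.019G124600.1. At the knockout limit, Potri.001G439800.1 and Potri.001G440200.1 were inside with a lowest library of 2.04 CPM, and Potri.009G151300.2 and Potri.017G117300.1 were outside with 1.96 CPM. The gap between groups was smallest in Potri.013G037900.1, whose lowest knockout library read 2.06 CPM and whose highest control, empty-vector 1, read 2.05 CPM. Some rows with far higher knockout values failed the control limit. Potri.013G082700.1 read 1450, 5824 and 676 CPM in knockout but averaged 1.15 CPM in controls, and Potri.001G395900.1 read 31.4, 40.1 and 34.9 CPM with a control mean of 1.22 CPM.

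The 3 knockout libraries differed in how high they rose. Within a member, the highest knockout library was a median of 1.94 times the lowest, against 1.44 over all tested rows. In the 34 members with a knockout mean over 10 CPM this ratio was 2.86, against 1.33 in 6055 other tested rows with a knockout mean between 10 and 100 CPM. The levels were not matched within these bounds, and the part of low counts in these ratios was not tested. The tested rows set beside members here and below were not limited to rows higher in knockout. Uneven knockout libraries were thus not shown to be particular to members. Knockout library 2 was highest in 57 members (40.1%), library 3 in 52 (36.6%) and library 1 in 33 (23.2%). Over all tested rows these shares were 33.5%, 36.2% and 30.3%. Library 2 exceeded library 3 by more than 2 times in 26 members (18.3%) and in 6.91% of all tested rows. The opposite held in 13 members (9.15%) and in 8.44% of all tested rows.

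A ratio above 4 was seen in 13 members (9.15%) and in 4.15% of all tested rows. Of the 13 members, 10 were highest in library 2 and 8 lowest in library 3. How the libraries ranked in other rows with a ratio above 4 was not compared. The widest was that of Potri.013G101000.1, with 21.5, 114 and 3.04 CPM in knockout. Its intermediate values were 5.79, 0.167 and 2.04 CPM and its controls ran from 0 to 0.512 CPM, so intermediate 1 lay above knockout 3. Its log2 fold change of knockout against intermediate was 4.03 ± 1.10 (SE) and fell to 2.09 without knockout 2. Potri.007G027900.1 followed with 21.5, 46.8 and 2.28 CPM in knockout, a ratio of 20.5. Its intermediate values were 0.681, 0.167 and 2.72 CPM, and its controls read at most 0.515 CPM. In Potri.001G176000.1, with 19.7, 26.4 and 3.80 CPM in knockout, intermediate 3 was again the highest of its group at 2.91 CPM. At the even end, Potri.011G149600.1 read 2.40, 2.42 and 2.39 CPM in knockout, Potri.003G102100.1 5.66, 5.20 and 5.43 CPM, Potri.004G074200.1 2.57, 2.23 and 2.39 CPM, and Potri.010G056400.1 3.43, 3.16 and 3.80 CPM. All 4 of these were low, on 12 to 50 counts per library.

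**Figure D3:**
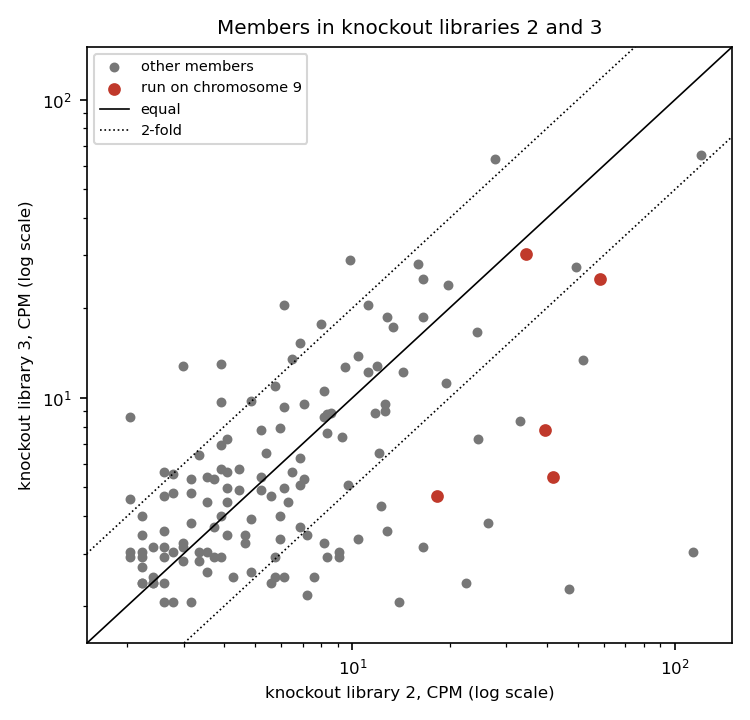
Each point is a member, with its CPM in knockout library 2 on the horizontal and in library 3 on the vertical log axis; the solid line marks equal levels and the dotted lines a 2-fold difference. The points below the lower dotted line are the 26 members more than 2 times higher in library 2, among them 4 of the 5 loci of the run on chromosome 9 (red).

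Positions along the genome were compared through the ID numbers, with loci ordered among those measured. Members carried the numbers of all 19 chromosomes, from 2 on each of chromosomes 2 and 15 to 20 on chromosome 1, and 6 lay on unplaced scaffolds. Members made up 1.05% of the measured rows on chromosome 1 and 0.842% of all rows. This share ran from 0.176% on chromosome 2 to 1.39% on chromosome 9. Of 135 member loci with a chromosome number, 31 fell into 13 runs in which the next member was at most 5 measured loci away. There were 10 runs of 2 loci, 2 of 3 and 1 of 5. The 135 member loci stood among 15928 measured loci with a chromosome number. How many runs this density alone would give was not tested. Loci that touched a member without being one were also described. Of 199 such rows that were tested, edgeR called 66 (33.2%) higher in knockout than in controls and 16 (8.04%) lower, where over all tested rows it called 17.1% and 13.0%. Neighbouring copies of a gene can share reads, which was not tested here since no sequence was used.

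The run of 5 on chromosome 9 consisted of consecutive measured loci. Potri.009G141700.1 read 38.4, 34.6 and 30.3 CPM in knockout, 1.02, 0 and 3.30 CPM in intermediate and 0 to 1.20 CPM in controls. Potri.009G141800.1 read 15.8, 39.6 and 7.82 CPM in knockout, with no other library over 1.26 CPM. Potri.009G142100.1 read 9.78, 18.2 and 4.67 CPM in knockout, with no other library over 0.917 CPM. Apart from the first, these loci were highest in knockout library 2 and lowest in library 3.

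Potri.009G142200.1 read 56.6, 58.5 and 25.0 CPM in knockout, 1.53, 0.836 and 1.46 CPM in intermediate and 0.307 to 2.06 CPM in controls. Potri.009G142300.1, the last, read 14.6, 41.8 and 5.43 CPM in knockout, 0.681, 0.502 and 0.874 CPM in intermediate. Wild-type stood at 1.28, 1.37 and 1.10 CPM, and empty-vector at 0.205, 0.520 and 0.121 CPM. In this locus and in Potri.009G142100.1 all 3 wild-type libraries lay above all 3 empty-vector libraries, an order seen in 4.74% of all rows. In Potri.009G142100.1 it rested on few counts, at 0.470 to 0.917 CPM in wild-type and 0 to 0.116 CPM in empty-vector.

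The loci on either side were expressed in all groups. Potri.009G141600.1, the measured locus before it, read 24.0, 75.1 and 32.2 CPM in knockout and 8.24 to 18.4 CPM in controls, so it too was higher in every knockout library. Potri.009G142800.1, the one after it, read 72.7 to 88.6 CPM in knockout and 53.3 to 68.6 CPM in controls. Thus transcripts near 0 in controls stood between transcripts that were on in all libraries.

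**Figure D4:**
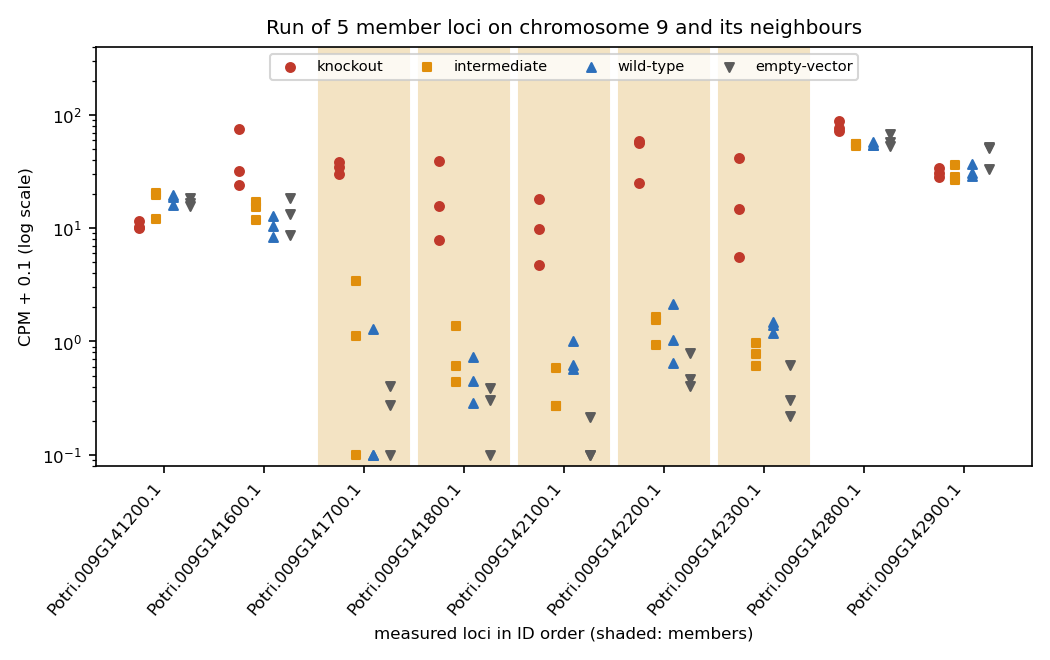
CPM + 0.1 on a log axis for the 5 member loci of the run on chromosome 9 (shaded) and the 2 measured loci on either side, in ID order; each point is 1 library. Within the shading, knockout points lie at 4.67 CPM or above and all others at 3.30 CPM or below, while at the 4 loci outside it every library reads 8.24 CPM or more.

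The runs of 3 were less sharply set off. On chromosome 1, Potri.001G439400.1, Potri.001G439800.1 and Potri.001G440200.1 had knockout means of 4.85, 3.40 and 3.41 CPM and control means of 0.570, 0.361 and 0.250 CPM. Between the last 2 lay Potri.001G440100, whose transcript 2 averaged 1.53 CPM in knockout and 3.02 CPM in controls, with groups that overlapped (edgeR adjusted p = 0.083). On chromosome 7, Potri.007G140800.1, Potri.007G141700.1 and Potri.007G141900.1 had knockout means of 2.68, 3.44 and 6.51 CPM and control means of 0.405, 0.552 and 0.804 CPM. Between the first and the second of these, Potri.007G141100.1, Potri.007G141400.1 and Potri.007G141500.1 had knockout means of 8.96, 10.6 and 16.1 CPM and control means of 3.78, 2.47 and 5.07 CPM. These 3 non-members were thus also higher in every knockout library but 1, knockout 2 of Potri.007G141100.1, which lay below empty-vector 3. Potri.007G140900.1, in the same interval, was near the limits, with a knockout mean of 2.19 CPM, a control mean of 0.322 CPM and 1.09 CPM in knockout 3. Potri.007G141800.1, between the second and the third member, averaged 1.55 CPM in knockout and 2.50 CPM in controls, with groups that overlapped (edgeR adjusted p = 0.18).

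On chromosome 1, the members Potri.001G171600.1 and Potri.001G172100.2 had knockout means of 3.63 and 2.86 CPM. Potri.001G171800.1 between them averaged 30.8 CPM in knockout and 54.9 CPM in controls, with groups that overlapped (edgeR adjusted p = 0.14). A locus counted as more than 1 transcript gave 2 members once: Potri.003G169900.1 and Potri.003G169900.2 had knockout means of 3.08 and 3.79 CPM. Of Potri.001G066500 only transcript 2 was a member, while transcript 1 had a knockout mean of 9.24 CPM and a control mean of 1.44 CPM.

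The comparison of knockout with intermediate used libraries outside the rule on the intermediate side. In 138 of 142 members (97.2%) all 3 knockout libraries lay above all 3 intermediate libraries, which held for 21.1% of all rows. edgeR's quasi-likelihood test called 130 members (91.5%) higher in knockout and 0 lower, where over all tested rows it called 9.94% higher and 7.41% lower. The members had been chosen for high knockout values, so a high share was built in on that side. Their median log2 fold change against intermediate was 2.91 and that of all tested rows was −0.01.

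For the 12 members with the highest lowest-knockout value, the fitted knockout level was 8.24-fold to 62.7-fold above intermediate. These were picked by their knockout values, so the folds are a description and no p is given. The 62.7-fold difference was that of Potri.014G146000.1, whose log2 fold change of 5.97 was 5.31 without knockout 3 and 5.54 without intermediate 3. Potri.003G190600.1 was 38.7-fold higher. The 8.24-fold difference was that of Potri.001G283700.1, at 13.4, 19.5 and 11.2 CPM in knockout and 1.36, 0.669 and 2.62 CPM in intermediate; its log2 fold change of 3.04 was 3.75 without intermediate 3. In all 12 the knockout libraries were clear of the intermediate ones.

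The 12 members that edgeR did not call against intermediate had log2 fold changes between 0.04 and 1.80 and adjusted p between 0.062 and 0.96. In 2 of them an intermediate library lay above a knockout library. Potri.010G133200.1 read 2.40, 5.76 and 2.50 CPM in knockout, 5.96, 1.67 and 2.14 CPM in intermediate and 0.242 to 0.940 CPM in controls. Its log2 fold change of knockout against intermediate was 0.04 ± 0.49 (SE; 95% interval 0.489-fold to 2.17-fold; edgeR adjusted p = 0.96). It turned negative, to −0.46, without knockout library 2. Potri.009G048400.1 read 6.87, 13.9 and 2.06 CPM in knockout, 6.13, 1.17 and 1.85 CPM in intermediate and 0.515 to 1.10 CPM in controls (edgeR adjusted p = 0.22). Without intermediate 1, its highest, the log2 fold change was 2.17 (edgeR adjusted p = 0.047). In 16 of 17 alternative settings it was not called. The members had been chosen for high knockout values, so these p-values are a description. In both transcripts all 3 intermediate libraries lay above all 6 controls and intermediate 1 stood out.

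Intermediate was then set against the controls, a comparison that shares its controls with the rule. edgeR called 0 members in either direction, as against 0.007% of all tested rows higher (1 row) and 0% lower. At an unadjusted p under 0.05 there were 36 members higher (25.4%) and 1 lower. Over all tested rows these counts were 650 (4.55%) and 263. The rule kept the control side of members low, so nothing is read from the member counts. DESeq2 called 3 members and limma-voom 0. The median log2 fold change of the members was 0.75, and it was above 0 in 124 of 142 (87.3%). For all tested rows the median was 0.00 and 49.8% lay above 0, and for the 110 other tested rows with a control mean under 1 CPM it was 0.51 and 78.2% lay above 0. Low control values were a condition of membership, which by itself pushes such fold changes up. All members passed the filter on low counts, but through knockout, so nothing is read from these shares, and raw levels of all low rows were set side by side. The intermediate mean exceeded the control mean in 109 members (76.8%) and in 39.9% of the other 2171 rows with a control mean under 1 CPM. With TMM-scaled library sizes these shares were 81.0% and 47.7%.

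In absolute terms the intermediate levels of members stayed low. Their means had a median of 0.697 CPM and a highest value of 3.26 CPM, against a median of 0.486 CPM in controls. In 43 members the intermediate mean was at least 1 CPM and in 6 at least 2 CPM. All 3 intermediate libraries reached 2 CPM in 0 members, and 0 rows of the whole table met the rule when intermediate took the place of knockout (1 row with TMM-scaled library sizes). All 3 intermediate libraries lay above all 6 controls in 11 members (7.75%), in 0.878% of all rows and in 0.875% of the other rows with a control mean under 1 CPM. This count rested on few reads and was 4 when all libraries were thinned to the smallest total. The opposite order was seen in 1 member (2.24% of all rows), Potri.004G012700.1, with 0, 0 and 0.0971 CPM in intermediate, 0.173 to 0.846 CPM in controls and 5.65 to 8.58 CPM in knockout.

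These 11 members are a description, since they were picked by this order and edgeR called 0 of them for intermediate against controls. Potri.006G179300.1 stood at 6.18, 6.13 and 20.4 CPM in knockout, 3.41, 2.17 and 1.85 CPM in intermediate and 0.363 to 1.65 CPM in controls. Its log2 fold change of intermediate against controls was 1.81 ± 0.54 (SE; edgeR adjusted p = 0.45). That of knockout against intermediate was 2.12 ± 0.51 (SE), and 1.23 without knockout 3. Potri.017G047800.1 read 2.40, 9.11 and 2.93 CPM in knockout, 1.19, 1.17 and 1.17 CPM in intermediate and 0.347 to 0.734 CPM in controls. Over the 11 members the log2 fold change of intermediate against controls ran from 1.26 to 2.38, with adjusted p between 0.22 and 0.69 by edgeR's test.

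The 3 members that DESeq2 called in intermediate were Potri.003G190600.1, Potri.010G133200.1 and Potri.001G019700.1. They were picked by that call, and the rule kept their controls low. Both choices push the fold changes and intervals up, so these are a description. For Potri.003G190600.1 the fold change by edgeR was 6.66 (95% interval 3.13 to 14.2; adjusted p = 0.22). Its empty-vector values near 0 raise this fold change, since the 2 control groups were averaged on the log scale. For Potri.010G133200.1 it was 5.19 (95% interval 2.53 to 10.6; edgeR adjusted p = 0.22). Potri.001G019700.1, named here after its values were seen, read 21.1, 8.18 and 8.58 CPM in knockout, 0.511, 0.334 and 1.85 CPM in intermediate and 0 to 0.343 CPM in controls, with an edgeR adjusted p of 0.33. In the last of these the intermediate value rested on 19 counts in library 3.

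Within intermediate, library 1 was the highest in 53 members, library 3 in 48 and library 2 in 41. Over all tested rows library 2 was the highest in 47.9%, and in members in 28.9%. These counts used CPM without TMM scaling, and the TMM factors of libraries 1 to 3 were 0.929, 1.00 and 0.917. The 6 members with the highest intermediate mean were Potri.010G133200.1, Potri.009G048400.1, Potri.013G101000.1, Potri.006G179300.1, Potri.003G190600.1 and Potri.004G111100.1. The last stood at 2.56, 1.17 and 2.72 CPM in intermediate, 10.3, 8.36 and 2.93 CPM in knockout and 0.363 to 1.37 CPM in controls. Without these 6 the member sums were 97.8, 91.2 and 109.7 CPM in intermediate and 63.3 to 71.2 CPM in controls, so the order of the sums did not rest on them.

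**Figure D5:**
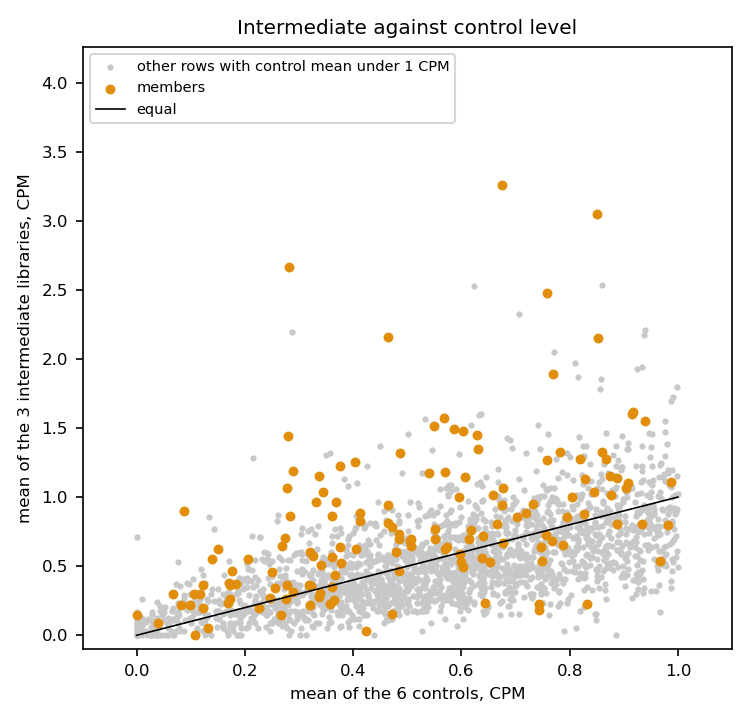
Mean CPM in the 3 intermediate libraries (vertical) against the mean of the 6 controls (horizontal), both on linear axes, for the 142 members (orange) and the other 2171 rows with a control mean under 1 CPM (grey); the line marks equal levels. Of the members 109 lie above the line, and 6 lie at 2 CPM or more.

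Empty-vector and wild-type entered the rule alike, so the direction of a difference between them was not fixed by it. The rule kept both groups low in members, where few counts leave little room for a call. Nothing is therefore read from the number of members called. edgeR called 0 members between empty-vector and wild-type, as against 0.035% of all tested rows higher in empty-vector and 0.007% lower. At an unadjusted p under 0.05 there were 6 members higher (4.23%) and 5 lower in empty-vector. Over all tested rows these counts were 1259 (8.82%) and 1150. By limma-voom 0 members were called, and DESeq2 called 1 but gave no adjusted p for 130 of the 142. All 3 empty-vector libraries lay above all 3 wild-type libraries in 13 members (9.15%) and below them in 9 (6.34%), where all rows gave 13.4% and 4.74%. The empty-vector mean was the higher in 73 members (51.4%), against 66.9% of all tested rows, in CPM without TMM scaling. In the edgeR fit, which used TMM, the log2 fold change was above 0 in 65 members (45.8%). It was above 0 in 55.2% of all tested rows, so these shares depended on the scaling. The transcript DESeq2 called was Potri.003G190600.1, lower in empty-vector (edgeR log2 fold change −2.84, adjusted p = 0.18; DESeq2 adjusted p = 0.037). The smallest edgeR adjusted p was 0.17, for Potri.010G021800.1. It read 1.10, 0.343 and 0.157 CPM in wild-type, showed 0 counts in all empty-vector libraries, and read 6.01, 2.60 and 5.65 CPM in knockout.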

How the data were processed

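RNA of mature leaves was measured by RNA-seq in 12 libraries of 4 genotype groups. The values are counts deposited by the authors, whole numbers per transcript ID in 1 table per library, not normalised. Per the submitters' processing notes, DESeq2, HTSeq, Cufflinks, SAMtools and HISAT2 were used; for versions, genome build and strand setting, not given in the sources used here. CPM is the count over the library total. All rows were fitted in R 4.3.3 with edgeR 4.0.16 (filterByExpr with a minimum count of 10, minimum total of 15 and proportion of 0.7; TMM; quasi-likelihood tests, two-sided; 4 group means; Benjamini-Hochberg over 14279 rows; threshold 0.05). For controls, the means of both control groups were weighted equally on the log scale, so a control group near 0 raises a fold change. SEs and 95% intervals come from the F statistic and cover the spread between libraries; floors of 3 counts cover counting error only. Library numbers were given here within each group in accession order, do not come from the labels and pair no libraries. The edgeR step was tested on simulated counts. DESeq2 1.42.0, limma 3.58.1 (voom), other scalings, no filter, thinned counts and leaving out libraries were alternatives.

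The members, lists and rule for named transcripts were chosen with earlier results of these data known. Named were the 12 members with the highest lowest-knockout value, those at 0 in all controls, the 6 highest in intermediate, the most and least even in knockout, those at the limits of the rule, and the largest runs of neighbours; others, such as Potri.001G176000.1, were named after their values were seen. Function groups, markers and promoters were not analysed here, since no annotation was used.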

Additional observations from a re-analysis of the deposited data

How the results depend on the processing

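The number of members depended on the limits: it was 72 with a control mean under 0.5 CPM, 347 under 2 CPM, 307 with a knockout minimum of 1 CPM and 42 with 5 CPM. TMM-scaled sizes gave 150, including all 142, and counts thinned to the smallest total gave 151, including 132 of them. With 1 library left out it ran from 141 to 204, the highest without knockout 3. Leaving out a knockout library could only keep or raise it. Members with intermediate above all controls numbered 4 after thinning and 12 to 27 with 1 library left out, and members at 0 in intermediate 2 and 1 to 4. Leaving out a library could only keep or raise both counts, so their ranges are no test of stability. With 1 library left out, the median intermediate level ran from 0.674 to 0.705 CPM. Members called ran from 139 to 141 for knockout against controls, from 106 to 132 against intermediate, and were 0 throughout for intermediate against controls and for empty-vector against wild-type; DESeq2 called 3 and 1 in these. Over all rows, calls ran from 3086 to 4525 for knockout against controls and from 1566 to 3089 against intermediate, 1566 without intermediate 2 and 1607 without knockout 2. For intermediate against controls they ran from 0 to 3, with 2 without a filter and 63 by DESeq2. For empty-vector against wild-type they ran from 0 to 1302, the latter without empty-vector 2, with 3 under upper-quartile scaling and 252 by DESeq2. The log2 fold change of Potri.010G133200.1 between knockout and intermediate ran from −0.46 to 0.78 with 1 library left out and reversed without knockout 2 (−0.46), intermediate 2 (−0.28) or intermediate 3 (−0.22); the cause was not tested. In alternatives chosen after seeing the data, the members with an intermediate mean above the control mean numbered 105 to 115, and those with a log2 fold change above 0 numbered 110 to 125. No paired analysis was possible because the labels give no replicate number shared between groups; the numbers used here only name libraries. A floor of 3 counts was 0.173 to 0.558 CPM, so member values under it could not be told from 0.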
